A study of Mus musculus with 8 samples.

Results

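Deep astrocytes are the nuclei that the authors' table names Deep-Astro, the astrocyte group that the study places in cortical layers 5 and 6. They comprised 1852 of 44021 nuclei from 8 libraries, and 1852 of 11532 astrocyte nuclei (906 in the VGlut2 libraries and 946 in the Ip3r2 libraries). They were taken by that class name alone, and were compared within each library with the other 3 astrocyte groups: upper (Upper-Astro-1), mid (Upper-Astro-2) and white matter (WM) astrocytes. Mitotic astrocytes are a class of their own and were not counted among them.

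The nuclei came from the visual cortex (VC) of C57BL/6J mice at postnatal day 14, and were sorted for absence of NeuN, a protein of neuronal nuclei, before droplet barcoding. The 4 groups had 2 libraries each, 1 male and 1 female, and the tissue of 2 mice was combined in each library. VGlut2 WT mice carried the floxed vesicular glutamate transporter gene (VGlut2 f/f) without cre. VGlut2 cKO mice (VGlut2 f/f;ROR acre) carried it with a cre driven by the RORα locus, which the study used to delete the gene in thalamic neurons. Ip3r2 WT and Ip3r2 KO mice differed in the type 2 IP3 receptor, a channel for calcium release from internal stores. That deletion was not restricted to a cell type, and by the study's methods Ip3r2 controls could be non-littermates. The floxed allele was carried by both VGlut2 groups, and no mouse without it was in that model.

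Astrocytes enwrap synapses, take up glutamate and buffer potassium. In the cortex they differ gradually in form and gene expression from the pial surface to the white matter, and those of the deep layers lie among the projection neurons that leave the cortex. Astrocytes in general are recognised by Slc1a3 (a glutamate transporter), Gja1 (the gap junction protein connexin 43) and Aqp4 (the water channel of the endfeet). The table lists nuclei and not genes, so the levels of these markers in the deep group were not analysed here and the name is the authors' own. The class was drawn by clustering the same nuclei, and its distance from the other groups in expression is therefore no test of its existence.

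Libraries held 4767 to 5920 nuclei and 8824112 to 12948023 UMIs (unique molecular identifiers, each standing for 1 captured RNA molecule), and the median nucleus had 1343 to 2242 UMIs. Deep astrocytes contributed 182 to 284 nuclei and 290871 to 478843 UMIs per library. Of all nuclei 475, and of the 1852 deep nuclei 23, had a barcode sequence that also occurred in another library. A single barcode was shared by deep nuclei of different libraries.

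Deep astrocytes had the fewest UMIs of the 4 astrocyte groups in 8 of 8 libraries. The median deep nucleus had 1275 UMIs in VGlut2 WT male, 1396 in VGlut2 WT female, 1212.5 in VGlut2 cKO male and 1701 in VGlut2 cKO female. It had 1808 in Ip3r2 WT male, 1776 in Ip3r2 WT female, 1874 in Ip3r2 KO male and 1589 in Ip3r2 KO female. The order upper, mid, WM and deep, from most to fewest, was found in 8 of 8 libraries. The mean of the library medians was 1579 ± 255 in deep astrocytes, against 2581 ± 415 in upper, 2289 ± 379 in mid and 2069 ± 387 in WM astrocytes (SD, n = 8 libraries). Groups overlapped between libraries of different depth, but not within a library at the level of the median.

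**Figure D1:**
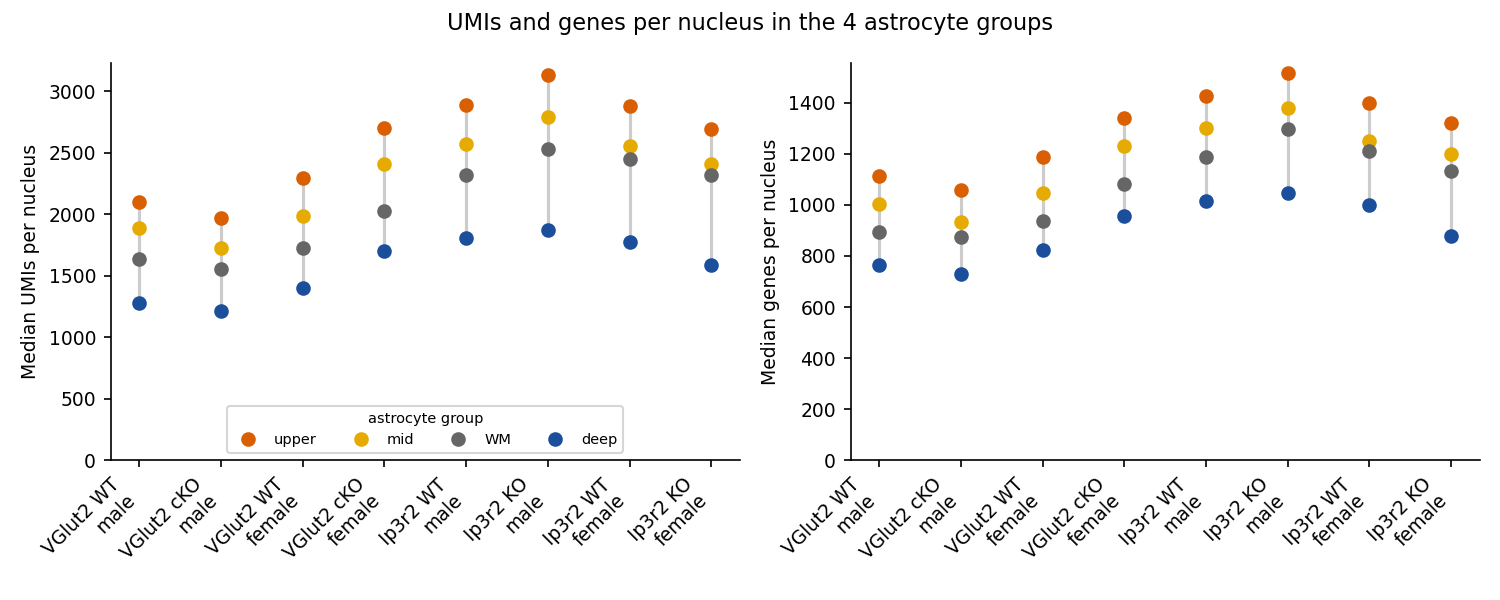
Median UMIs (left) and median genes detected (right) per nucleus in each of the 8 libraries, with 1 point for each astrocyte group and a grey line joining the groups of a library. The deep group is the lowest point in every library, at 1212.5 to 1874 UMIs and 729 to 1048 genes.

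The gap to upper astrocytes was nearly the same in every library. Deep nuclei had 0.612-fold the UMIs of upper nuclei (log2 difference -0.71 ± 0.03, SD, n = 8; ratios from 0.590 to 0.631), 0.690-fold those of mid nuclei (-0.53 ± 0.04; 0.660 to 0.707) and 0.766-fold those of WM nuclei (-0.38 ± 0.09; 0.686 to 0.839). Each difference passed an exact two-sided sign flip test over the 8 libraries (adjusted p = 0.0117 for each, Benjamini-Hochberg over 12 comparisons; the unadjusted p of 0.00781 is the smallest that 8 libraries can give). Of the 12 comparisons of deep with other astrocytes, 10 passed, or 83.3%. The gap to WM astrocytes was smaller than that to upper astrocytes, and varied more between libraries. The test says that the difference recurs over libraries. It does not separate RNA content from the way nuclei were assigned to groups.

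Single nuclei overlapped more than the medians. When a deep nucleus was set against an upper nucleus of the same library, the deep one had fewer UMIs in 88.8% ± 3.06 of the pairs, and against mid and WM nuclei in 82.7% ± 3.38 and 74.8% ± 3.96 (SD, n = 8 libraries). On average 3.28% of deep nuclei had more UMIs than the median upper nucleus of their library, from 0.930% in VGlut2 WT female to 7.63% in Ip3r2 KO female. The spread of UMIs within the deep group was like that in the other groups, with a mean coefficient of variation of 29.2% ± 4.17 in deep, 28.0% ± 3.65 in upper, 28.7% ± 2.65 in mid and 29.7% ± 4.21 in WM astrocytes. Deep nuclei with under 1000 UMIs were 0.810% to 10.2% of the deep group in 6 libraries, and 23.1% and 24.3% in the male VGlut2 WT and cKO libraries, which had the lowest median UMIs of the 8. The deep group held 16.5% ± 4.53 of the astrocyte nuclei of a library but 11.7% ± 3.53 of the astrocyte UMIs.

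Deep astrocytes were concentrated at the low end of the UMI range of each library. When the astrocytes of a library were split by UMIs into 5 equal parts, deep nuclei made up 48.2% ± 9.14 of the lowest part and 21.6% ± 10.6 of the next. They made up 8.13% ± 3.91 of the middle part, 3.72% ± 2.73 of the fourth and 1.02% ± 0.760 of the highest (SD, n = 8 libraries). Of all deep nuclei 58.9% lay in the lowest part and 1.24% in the highest. In VGlut2 WT female 0 of 303 astrocytes of the highest part were deep, which allows a share of up to 0.990%. Deep nuclei were 65.2% of the lowest part in Ip3r2 KO male and 58.0% in Ip3r2 WT male, the libraries with the highest deep share of astrocytes, against 39.0% to 49.4% in the other libraries. Counted over the deep nuclei of each library, the lowest part held 44.9% of them in Ip3r2 WT male (119 of 265), the smallest of the 8 libraries, and 54.2% to 67.6% in the others, with the highest value in Ip3r2 KO male.

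**Figure D2:**
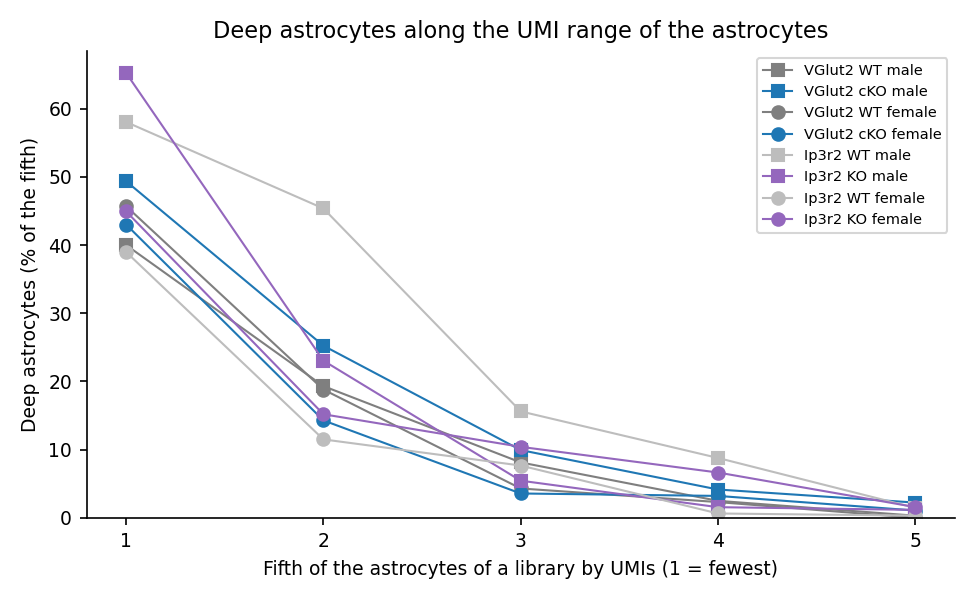
Share of deep nuclei in each of 5 equal parts of the astrocytes of a library, ordered by UMIs from fewest (1) to most (5), with 1 line per library and squares for male and circles for female libraries. The share falls from 39.0% to 65.2% in the lowest part to at most 2.24% in the highest.

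Among all 20 classes of the table, the deep group ranked between 6 and 8 from the lowest median UMIs. Microglia, perivascular macrophages, pericytes, mitotic microglia and endothelial cells were below it in 8 of 8 libraries. Leptomeningeal cells of the Col15a1 class were below it in 5 and Gad1 neuron-like nuclei in 4 of 8. Mitotic astrocytes (1735 ± 289 UMIs, SD, n = 8) were above it in 8 of 8, as were the other classes.

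Genes detected followed the same order. The median deep nucleus had 763 and 823 genes in VGlut2 WT (male and female), 729 and 955.5 in VGlut2 cKO, 1016 and 998 in Ip3r2 WT, and 1048 and 878 in Ip3r2 KO. This was 0.695-fold the number in upper, 0.772-fold that in mid and 0.839-fold that in WM astrocytes (log2 differences -0.52 ± 0.04, -0.37 ± 0.04 and -0.25 ± 0.06, SD, n = 8). Deep astrocytes were the lowest in 8 of 8 libraries in each comparison (exact sign flip test, adjusted p = 0.0117 for each). The gap in genes was smaller than the gap in UMIs for each of the 3 groups.

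A nucleus with fewer UMIs shows fewer genes, so genes were also compared at matched UMIs, by a curve of log2 genes on log2 UMIs fitted in each library with a level for each astrocyte group. At matched UMIs deep nuclei had slightly more genes than mid nuclei (log2 difference 0.03 ± 0.01, SD, n = 8, higher in 8 of 8 libraries; exact sign flip test, adjusted p = 0.0117), a ratio of 1.02. They also had more than WM nuclei (0.02 ± 0.01, a ratio of 1.02, higher in 7 of 8; exact sign flip test, adjusted p = 0.0188). Against upper nuclei the difference was 0.01 ± 0.02 (ratio 1.01, higher in 6 of 8; exact sign flip test, adjusted p = 0.136) and did not pass. That last comparison turned with the method: it passed with means over nuclei (0.0126, exact sign flip test, adjusted p = 0.0341) and without VGlut2 cKO replicate 1, the male library (0.0132, exact sign flip test, adjusted p = 0.0341), and was near 0 with bins of UMIs (-0.0034). At matched UMIs, deep astrocytes thus differed from mid and WM astrocytes by a few hundredths of a log2 unit, and no difference from upper astrocytes was shown. Without matching the differences from the other groups were -0.25 to -0.52.

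The mitochondrial share of the UMIs, which in nuclei reflects RNA from outside the nucleus, was similar in the 4 groups and slightly lower in deep than in upper and mid astrocytes. The median deep nucleus had 4.07% and 4.24% in VGlut2 WT (male and female), 4.17% and 4.03% in VGlut2 cKO, 4.30% and 4.13% in Ip3r2 WT, and 4.25% and 4.16% in Ip3r2 KO. It was lower than in mid nuclei by 0.145 percentage points on average (SD 0.0720, n = 8, lower in 8 of 8; exact sign flip test, adjusted p = 0.0117). It was lower than in upper nuclei in 7 of 8 libraries (difference -0.110 ± 0.0757 percentage points; exact sign flip test, adjusted p = 0.0188). It did not differ detectably from that in WM nuclei (0.00753 ± 0.0945 percentage points, higher in 3 of 8; exact sign flip test, adjusted p = 0.852). Which genes were counted as mitochondrial was not stated.

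Deep astrocytes were the third largest of the 4 astrocyte groups in 8 of 8 libraries. They were 14.0% of the astrocytes in VGlut2 WT male (225 nuclei; Wilson 95% interval 12.4 to 15.8) and 14.2% in VGlut2 WT female (215; 12.5 to 16.1). They were 18.2% in VGlut2 cKO male (284; 16.3 to 20.2) and 13.0% in VGlut2 cKO female (182; 11.3 to 14.9). In the Ip3r2 model they were 25.9% in WT male (265; 23.3 to 28.6) and 11.8% in WT female (185; 10.3 to 13.5), the highest and the lowest of all libraries. In Ip3r2 KO they were 19.3% in the male library (247; 17.2 to 21.5) and 15.7% in the female one (249; 14.0 to 17.6). Intervals cover counting error only. For the deep share, the variance between libraries was 18.2 times that of counting error. It was 40.4 times for upper, 37.6 for mid and 2.31 for WM astrocytes. This multiple grows with the number of nuclei in a group, so it does not rank the groups by relative spread. The highest share of a library was 2.19 times the lowest for deep, 1.87 for upper, 1.58 for mid and 1.43 for WM astrocytes. By that measure the deep share varied most among the astrocyte groups.

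**Figure D3:**
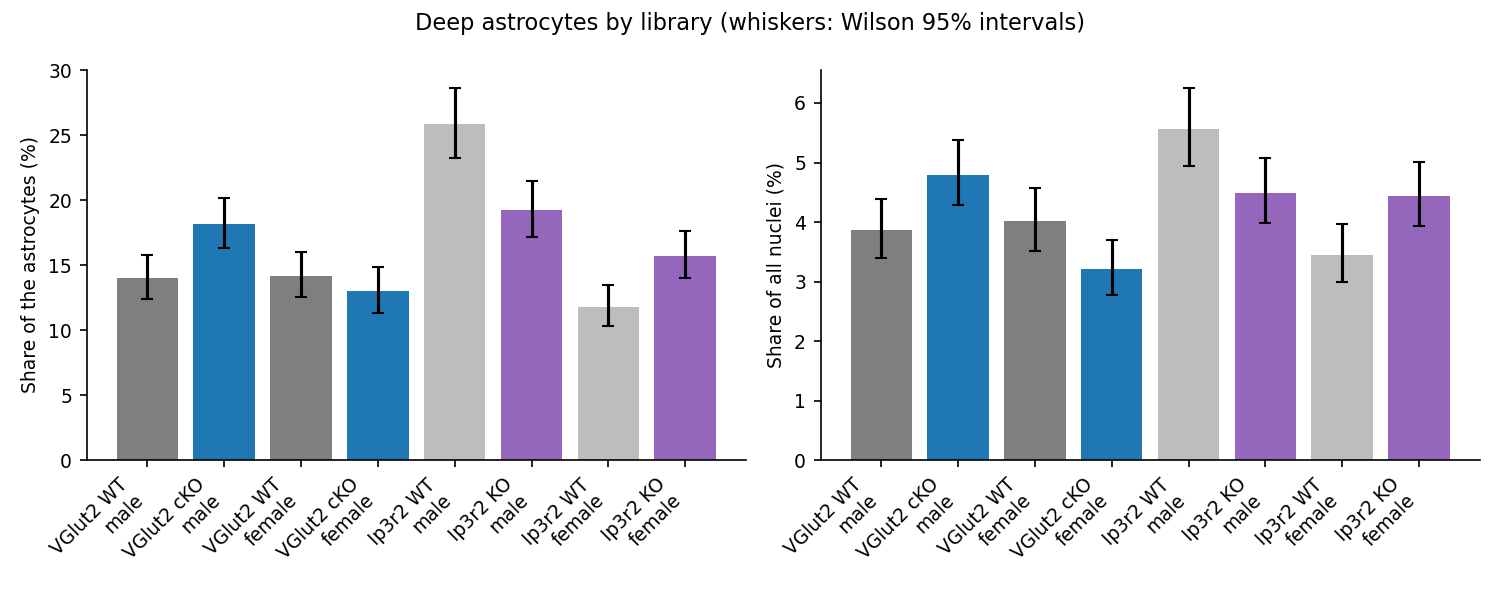
Deep astrocytes as a percentage of the astrocytes (left) and of all nuclei (right) in each library, coloured by group, with Wilson 95% intervals as whiskers. Ip3r2 WT male is the highest library on both scales (25.9% and 5.56%), and WT and mutant libraries of both models overlap.

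The question of the design was whether loss of thalamic glutamate release or of the IP3 receptor changes the astrocytes, and here whether it changes how many are of the deep kind. In the VGlut2 model the deep share was higher in cKO than in WT in males (18.2% against 14.0%) and lower in females (13.0% against 14.2%). In the Ip3r2 model it was lower in KO than in WT in males (19.3% against 25.9%) and higher in females (15.7% against 11.8%). Mutant and WT libraries therefore overlapped in both models. On the log2 odds scale the difference was 0.15 (95% interval -0.94 to 1.23) in VGlut2 and -0.03 (-1.12 to 1.05) in Ip3r2, and the former exceeded the latter by 0.18 (-1.35 to 1.72). Deep astrocytes did not pass in limma in any of the 3 contrasts (adjusted p = 0.994, 0.955 and 0.978), and of the 4 astrocyte groups 0, or 0%, passed in each, with 0 at an unadjusted p under 0.05. With edgeR 0 passed as well, with 0 at an unadjusted p under 0.05.

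Single libraries set the direction of these differences. The Ip3r2 difference was 0.65 without Ip3r2 WT replicate 1 (male), 0.14 without Ip3r2 KO replicate 2 (female) and -0.72 without Ip3r2 WT replicate 2 (female). The VGlut2 difference was -0.14 without VGlut2 cKO replicate 1 (male) and 0.43 without VGlut2 cKO replicate 2 (female). The difference between the models was -0.10 and -0.51 without VGlut2 cKO replicate 1 and Ip3r2 WT replicate 1, and 0.87 without Ip3r2 WT replicate 2. Changes of the deep share that lie within these intervals cannot be told from no change with these libraries.

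As a share of all nuclei, the deep group varied less. It was 3.87% and 4.01% in VGlut2 WT (male and female), 4.80% and 3.20% in VGlut2 cKO, 5.56% and 3.44% in Ip3r2 WT, and 4.49% and 4.44% in Ip3r2 KO. The 2 Ip3r2 KO libraries lay close together, between the 2 WT libraries. In limma over the 20 classes the log2 odds differed by -0.01 (95% interval -0.73 to 0.72; adjusted p = 0.986) in VGlut2 and 0.03 (-0.69 to 0.75; adjusted p = 0.986) in Ip3r2. Of 20 classes 0, or 0%, passed in either model with limma or edgeR, and 0 and 1 had an unadjusted p under 0.05 in limma, the latter not an astrocyte class. The direction in VGlut2 turned without VGlut2 WT replicate 2 (0.02) or VGlut2 cKO replicate 2 (0.30), and that in Ip3r2 turned without Ip3r2 WT replicate 2 (-0.33), all female libraries.

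Sex was the other factor of the labels. The deep share of the astrocytes was 19.3% ± 4.90 in male and 13.7% ± 1.68 in female libraries (SD, n = 4 each), higher in males in 3 of 4 groups and nearly equal in VGlut2 WT. The log2 odds were lower in females by 0.57 (95% interval -1.23 to 0.09 for female minus male), which did not pass in limma (adjusted p = 0.163; 0 of the 4 groups, or 0%, passed, with 0 at an unadjusted p under 0.05). In edgeR the difference was -0.47 (unadjusted p = 0.0494, adjusted p = 0.198), and the deep group was the only 1 of the 4 under 0.05 before adjustment. Without either Ip3r2 WT library the limma difference was -0.30. Each day of processing held 1 WT and 1 mutant library, and their sexes were not stated, so the part of the day was not tested.

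The share of the deep group among astrocytes depends on how many astrocytes of other groups were captured. Upper and mid astrocytes together numbered 640 nuclei in Ip3r2 WT male and 893 in Ip3r2 KO male, and 1096 to 1252 in the other 6 libraries. The number of deep astrocytes per upper and mid astrocyte was 0.414 in Ip3r2 WT male and 0.277 in Ip3r2 KO male, against 0.148 to 0.251 elsewhere. All nuclei outside the 4 astrocyte groups, mitotic astrocytes included, are called non-astrocyte nuclei from here on. Set per 100 non-astrocyte nuclei, deep astrocytes numbered 5.71 ± 0.911 (SD, n = 8; 4.25 in VGlut2 cKO female to 7.08 in Ip3r2 WT male), a coefficient of variation of 15.9%. On the same scale that coefficient was 31.3% for upper, 26.5% for mid and 6.44% for WM astrocytes.

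Libraries with a higher deep share of the astrocytes had a higher WM share among the rest. Across the 8 libraries the deep share of the astrocytes rose with the WM share of the non-deep astrocytes, from 11.8% deep with 9.28% WM in Ip3r2 WT female to 25.9% deep with 15.8% WM in Ip3r2 WT male. Pearson's r was 0.974 (exact permutation test, p = 4.96e-05, adjusted p = 0.000248 over 5 relations) and Spearman's rho 0.976 (exact permutation test, p = 0.000397, adjusted p = 0.00198). Without the 2 libraries farthest from the median, both Ip3r2 males, r was 0.986 over 6 libraries (exact permutation test, p = 0.00278). Within the 4 VGlut2 libraries r was 0.986 and within the 4 Ip3r2 libraries 0.980, which are too few for a test.

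Upper and mid astrocytes are in the denominator of both of those shares, so fewer of them raise both. Permuting the pairings takes no account of this, so those p-values do not test a relation beyond the shared denominator. The relation was therefore computed again with each group per 100 non-astrocyte nuclei, a choice made after the data were seen. On that scale r was 0.485 (exact permutation test, p = 0.231, adjusted p = 0.379 over 3 relations) and rho 0.381 (exact permutation test, p = 0.360, adjusted p = 0.389), and r was -0.676 without the 2 libraries farthest from the median (exact permutation test, p = 0.161). Within the models r was 0.832 in VGlut2 and -0.365 in Ip3r2. No relation of deep to WM astrocytes could be shown where the denominator was free of upper and mid astrocytes. On this scale the relation to upper astrocytes did not pass (r = -0.388, exact permutation test, p = 0.343, adjusted p = 0.379; rho = -0.357, exact permutation test, p = 0.389), and r was -0.01 without the 2 libraries farthest from the median. The relation to mid astrocytes did not pass either (r = -0.360, exact permutation test, p = 0.379, adjusted p = 0.379; rho = -0.429, exact permutation test, p = 0.299). Without VGlut2 WT female and Ip3r2 KO female it was -0.905 over 6 libraries (exact permutation test, p = 0.0167, adjusted p = 0.05).

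**Figure D4:**
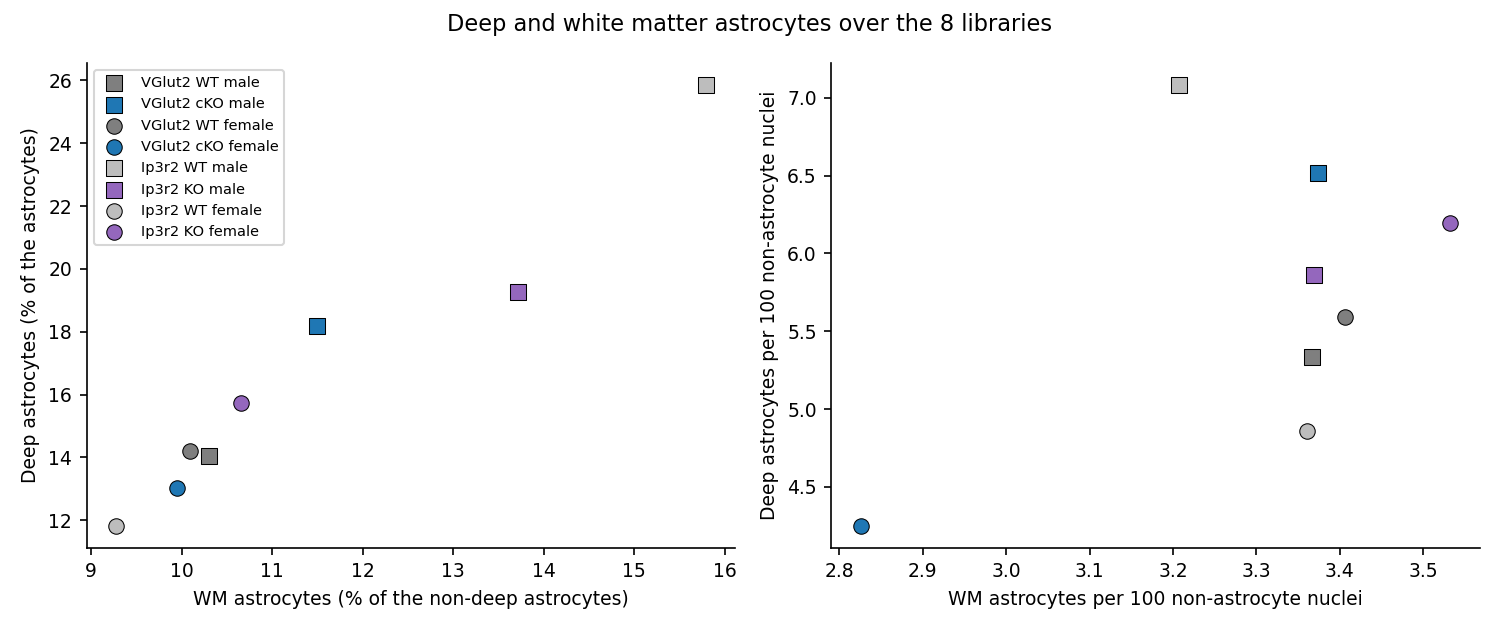
Deep against WM astrocytes in the 8 libraries, as shares of the astrocytes and of the non-deep astrocytes (left) and per 100 non-astrocyte nuclei (right), with squares for male and circles for female libraries; neither axis starts at 0. The points lie close to a line on the left (r = 0.974) and not on the right (r = 0.485).

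The deep share was compared with 4 other features of the libraries. It fell with the share of myelin-forming and mature oligodendrocytes among non-astrocyte nuclei (r = -0.842, exact permutation test, p = 0.0101, adjusted p = 0.0252; rho = -0.667, exact permutation test, p = 0.0831, adjusted p = 0.208). That relation rested on the male Ip3r2 libraries, which had 1.84% and 2.99% of these cells, since r was -0.264 without them (exact permutation test, p = 0.631). It was 0.121 within the VGlut2 libraries and -0.977 within the Ip3r2 libraries. The other 3 features had no relation that passed (exact permutation test, adjusted p = 0.837 for each). For the upper share of the non-deep astrocytes r was -0.162 (exact permutation test, p = 0.717) and rho -0.143, with r = 0.0853 without the 2 libraries farthest from the median. For the share of pial leptomeningeal cells r was 0.0938 (exact permutation test, p = 0.837) and rho 0.0714, with r = 0.389 without 2 libraries. For the median UMIs of the other astrocytes r was 0.215 (exact permutation test, p = 0.634) and rho 0.143, with r = 0.328 without 2 libraries.

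UMIs per deep nucleus overlapped between mutant and WT libraries in both models. In VGlut2 cKO the median was 1457 ± 345 and in WT 1336 ± 85.6 UMIs (SD, n = 2), lower in cKO in males (1212.5 against 1275) and higher in females (1701 against 1396). In Ip3r2 KO it was 1732 ± 202 and in WT 1792 ± 22.6, higher in KO in males (1874 against 1808) and lower in females (1589 against 1776). The log2 difference was 0.11 (95% interval -0.28 to 0.49; limma, adjusted p = 0.959) in VGlut2 and -0.05 (-0.44 to 0.33; limma, adjusted p = 0.99995) in Ip3r2. For genes per deep nucleus it was 0.07 (-0.24 to 0.39; limma, adjusted p = 0.922) and -0.07 (-0.38 to 0.24; limma, adjusted p = 0.996). These intervals pool the classes as if independent, though the classes of a library share its depth, and may be too narrow. Among 18 classes that reached 20 nuclei in each library, 0, or 0%, passed for UMIs or genes in either model, with 0 at an unadjusted p under 0.05. Each direction turned with 1 library: the UMI and gene differences were -0.14 and -0.12 without VGlut2 cKO replicate 2 (female), and 0.06 and 0.06 without Ip3r2 KO replicate 2 (female). Without the male mutant library instead they grew, to 0.35 and 0.27 without VGlut2 cKO replicate 1. They were -0.17 and -0.20 without Ip3r2 KO replicate 1.

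The depth of a library is shared by its astrocytes, and against the other astrocytes of the same library the deep group was steadier. Its median was 0.652 and 0.676 of that of all other astrocytes in VGlut2 WT (male and female), 0.668 and 0.688 in VGlut2 cKO, 0.685 and 0.652 in Ip3r2 WT, and 0.648 and 0.642 in Ip3r2 KO. The Ip3r2 KO libraries had the lowest ratios of the 8, just below Ip3r2 WT female and VGlut2 WT male. The log2 difference between mutant and WT was 0.03 (95% interval -0.09 to 0.15; limma, adjusted p = 0.994) in VGlut2 and -0.05 (-0.17 to 0.07; limma, adjusted p = 0.971) in Ip3r2. With means of log2 values in place of medians it was 0.09 (limma, adjusted p = 0.381) in VGlut2 and 0.01 (limma, adjusted p = 0.884) in Ip3r2. Leaving out 1 library gave 0.0046 (without VGlut2 WT replicate 1) to 0.06 (without VGlut2 WT replicate 2) in VGlut2, and -0.09 (without Ip3r2 WT replicate 2) to -0.02 (without Ip3r2 WT replicate 1) in Ip3r2. Of the 4 astrocyte groups 0, or 0%, passed in either model, with 0 at an unadjusted p under 0.05. These intervals may be too narrow as well, since the 4 groups serve as each other's denominator. The range between libraries was 0.642 to 0.688, so the lower UMI content of deep nuclei was present in every group of mice.

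In the deposited UMAP, a plane in which nuclei of like expression lie close together, deep astrocytes lay mostly beside one another, with mid and WM astrocytes as their most frequent other neighbours. Of the 15 nuclei nearest to a deep nucleus, 75.1% ± 3.35 were deep, 12.0% ± 2.88 mid, 8.16% ± 2.29 WM and 4.55% ± 1.26 upper astrocytes (SD, n = 8 libraries). No nucleus outside the astrocytes and mitotic astrocytes was among them. The other groups differ in size, with 4499 mid, 4108 upper and 1073 WM nuclei. For their number, WM nuclei were thus the most frequent of the other groups around deep nuclei. These values describe the authors' clustering and are not tested, since the plane and the classes come from the same nuclei. Seen from the other side, deep nuclei were 14.2% ± 3.85 of the neighbours of WM, 4.80% ± 1.67 of those of mid and 1.90% ± 0.722 of those of upper astrocytes. A deep neighbour was thus more frequent around WM than around mid or upper nuclei.

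**Figure D5:**
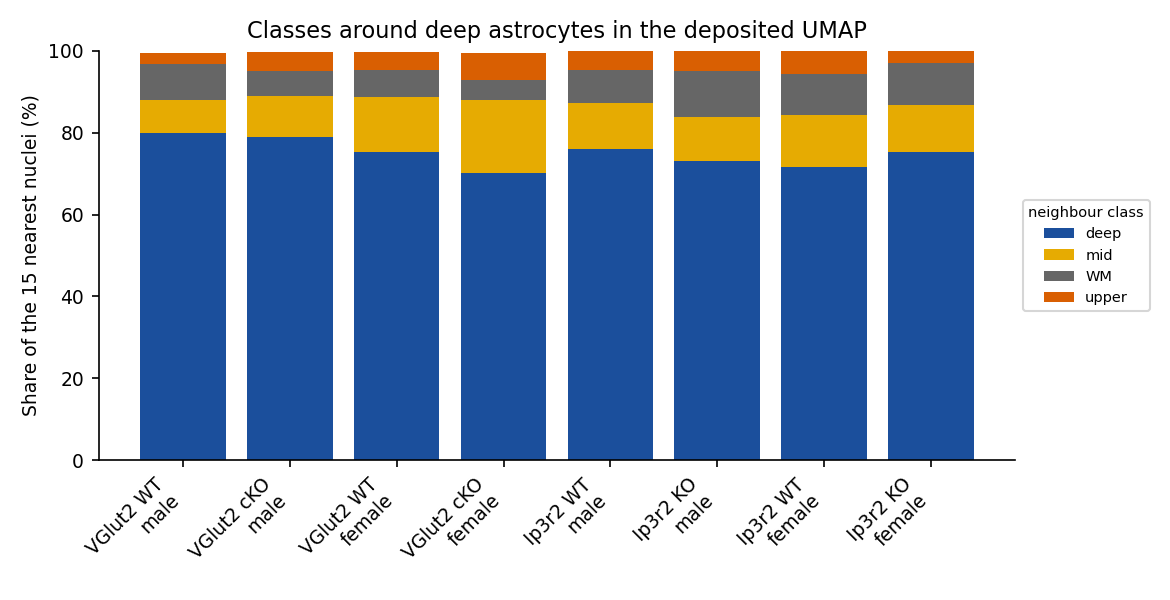
Classes of the 15 nearest nuclei of deep astrocytes in the deposited UMAP, as a percentage of neighbours in each library. Deep nuclei are 70.2% to 80.03% of the neighbours, mid nuclei 8.06% to 17.9%, WM nuclei 4.73% to 11.3% and upper nuclei 2.73% to 6.63%; the small remainder up to 100% is mitotic astrocytes.

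The plane was made after the authors corrected the libraries for batch, which brings libraries together by construction. Neighbours from the same library were 9.59% to 16.9% of the neighbours of a deep nucleus, while the libraries held 9.83% to 15.3% of the deep nuclei. The lowest share of deep neighbours was in VGlut2 cKO female (70.2%, with 17.9% mid) and the highest in VGlut2 WT male (80.03%, with 8.06% mid). In the Ip3r2 libraries WM neighbours were 7.95% to 11.3%, and in the VGlut2 libraries 4.73% to 8.59%, so the models overlapped.

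Deep nuclei with mostly deep neighbours (central nuclei) had fewer UMIs than those with fewer deep neighbours (edge nuclei). Nuclei with at least 80% deep neighbours numbered 1220 (65.9% of the deep nuclei), and those with under 50% numbered 384 (20.7%). The median of the former was 0.697 to 0.837 of that of the latter, lower in 8 of 8 libraries. Against the median upper astrocyte of the library the central nuclei had 0.561 to 0.590 of the UMIs and the edge nuclei 0.684 to 0.830. The gap to upper astrocytes was thus larger in central than in edge nuclei. Both are defined by their neighbours alone, and where edge nuclei lie in the plane was not analysed. Central and edge nuclei were chosen from the same expression data, so no test was made.

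Among the 15 nearest neighbours of mitotic astrocytes, the dividing cells of the lineage, deep astrocytes were the most frequent of the 4 astrocyte groups in both deposited embeddings. In the UMAP 96.0% of these neighbours were mitotic astrocytes themselves, 1.58% were deep astrocytes and none was an upper, mid or WM nucleus. In the tSNE plane, chosen after the data were seen, 1.65% were deep, 0.0937% upper, 0.0937% mid and 0.0781% WM nuclei. The shares of both planes pool the 427 mitotic nuclei of all libraries, and their spread between libraries was not computed. In both planes the remaining neighbours were nuclei of classes outside the astrocytes, and together they outnumbered the deep ones. Mitotic astrocytes were in turn 0.252% of the neighbours of deep nuclei in the UMAP and 0% of those of the other 3 groups. By library that share around deep nuclei ran from 0.0268% to 0.593%. In the tSNE plane they were 0.472% of the neighbours of deep, 0.0195% of upper, 0.0133% of mid and 0.00621% of WM nuclei. These positions were not tested.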

How the data were processed

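Single nucleus RNA sequencing was done on 8 libraries of the VC. By the study's methods the authors mapped reads to mm10 with Cell Ranger, discarded barcodes with few genes (the lowest in the table was 200), removed doublets with Scrublet in each sample, corrected for batch with Scanorama and clustered all nuclei and then the astrocytes alone. The deposited table has 1 line per nucleus, and the UMIs and genes are deposited as counts without normalization. The mitochondrial value was deposited as a fraction of the UMIs under a header that reads percent: times the UMIs it was whole within 0.001 in 44021 of 44021 nuclei. The embedding coordinates are deposited scores in arbitrary units. Model, genotype and sex in the table matched the labels in 8 of 8 libraries. The class names Upper-Astro-1 and Upper-Astro-2 are called upper and mid because their numbers of nuclei are those the study gives for these groups.

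Shares were compared as log2((nuclei + 0.5)/(other nuclei + 0.5)), and UMIs and genes as log2 of the library median, with limma 3.58.1 in R 4.3.3, 1 mean per group and all 8 libraries in the fit, Benjamini-Hochberg adjusted over the classes at 0.05. For UMIs, genes and UMIs relative to the other astrocytes, the standard error limma returned was shared by the classes, which were pooled as if independent. The classes of a library share its depth, so the intervals for UMIs and genes may be too narrow. The same holds for the shares of the astrocytes and the relative UMIs, where the 4 groups depend on one another. With 2 libraries against 2 no exact test can give a p below 0.333. Deep astrocytes and the other groups of a library were compared by exact sign flips (numpy 2.4.6), with p-values adjusted over 12 comparisons. All tests were two-sided. The sign flip test, the matching of genes to UMIs and limma on shares of all nuclei (VGlut2 contrast) were tried on simulated data. The permutation tests, edgeR and limma on UMIs and genes were not. Alternatives were edgeR 4.0.16, a pseudocount of 5, a minimum of 1000 UMIs, means, each model alone, same-sex pairs and leaving out each library. No mouse was used for more than 1 library as far as the study's methods tell. Deep astrocytes are named in every comparison with the other 3 astrocyte groups, and other classes where a relation or a neighbour count is about them. The classes ranked by median UMIs were named after their values were seen. The group, the comparisons and the rule were chosen with earlier results of these data known.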

Additional observations from a re-analysis of the deposited data

How the results depend on the processing

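Across alternatives other than leaving out a library, 97 of 108 values were counted as unchanged. Among them was every comparison of median UMIs and of genes (not matched for UMIs) between deep and other astrocytes. For tested values unchanged meant the same direction and side of the threshold. For the embedding, which was not tested, it meant a share of deep neighbours within the SD between libraries. Fitting each model alone or blocking same-sex pairs returns the same difference in this balanced design. Those values could therefore not change direction. For genes at matched UMIs against upper astrocytes, means over nuclei gave 0.0126 (past the threshold) and bins of UMIs -0.0034. For the mitochondrial share against WM astrocytes means gave -0.0271 percentage points. The relation of the deep share to the WM share fell to r = 0.485 per 100 non-astrocyte nuclei. Without the 2 libraries farthest from the median, the relation to oligodendrocytes fell to r = -0.264 and that to the upper share turned to 0.0853. The VGlut2 difference in the share of all nuclei was 0.0285 with at least 1000 UMIs and 0.0231 in edgeR, and the Ip3r2 one -0.0083 in edgeR. With means of log2 values the Ip3r2 differences in UMIs and in UMIs relative to the other astrocytes were 0.0146 and 0.0072. The causes were not tested.

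Leaving out 1 library at a time gave log2 odds differences of the deep share of astrocytes from -0.14 to 0.43 in VGlut2, -0.72 to 0.65 in Ip3r2 and -0.51 to 0.87 for their difference. Of all nuclei they ran from -0.31 to 0.30 and from -0.33 to 0.39. UMIs ran from -0.14 to 0.35 and from -0.17 to 0.0646, genes from -0.12 to 0.27 and from -0.20 to 0.0576. The mitochondrial share against WM ran from -0.0201 to 0.0191 percentage points, and genes at matched UMIs against upper from 0.0065 to 0.0132. The fits with 1 library in a group assume that it varies like the other groups. Same-sex pairs as a block changed no call. With 1 male and 1 female library in each group, this block cannot alter the differences of the deep share (0.15 in VGlut2 and -0.03 in Ip3r2). The labels carry no replicate numbers. The study's methods number the libraries and process 1 WT and 1 mutant together, without tying a number to a sex, so these pairs rest on sex. Leaving out nuclei with shared barcodes, chosen after the data were seen, changed no call. The number of neighbours (5 or 50) and tSNE coordinates, the latter likewise chosen later, moved the share of deep neighbours to 75.1% to 76.3%.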
